A study of Homo sapiens with 9 samples.

Results

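Ion channel genes were followed in LAN-5 cells, a human neuroblastoma line in long use, with and without exposure to extracellular S100B. They were taken as every probe set with a single gene symbol that starts with KCN (potassium channels), CACN (calcium channels) or SCN and a digit (sodium channels). The rule found 87 probe sets of 8746 on the array without its controls, and each stood for a different gene. There were 59 with a KCN, 19 with a CACN and 9 with an SCN symbol. A further 3 channel probe sets carried several symbols and were left out. KCNQ1DN meets the symbol rule but is annotated as a long non-coding RNA next to KCNQ1, and it was counted among the 87 and placed in no channel class, which leaves 58 potassium channel probe sets.

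Voltage-gated channels open when the membrane depolarises: sodium channels carry the upstroke of the action potential, potassium channels end it, and calcium channels couple it to secretion and to calcium signals inside the cell. The pore is formed by the large alpha subunits, while accessory subunits set how many pores reach the surface and how they gate. Inward rectifier and two-pore-domain potassium channels hold the resting potential, and calcium-activated potassium channels damp firing when calcium rises. Neuroblastoma cells derive from the sympathoadrenal lineage and can be electrically excitable. S100B is a calcium-binding protein that astrocytes release.

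The study compared 3 groups of 3 arrays, all of the same cell line grown in the same medium and described by the submitters as biological replicates: untreated cells, cells given S100B at 0.5 nM and cells given S100B at 5 µM. No genetic change separates the groups, the sources used here give neither the length of exposure nor a vehicle, and a single line stands for neuroblastoma. Biotin-labelled cRNA was hybridised to Affymetrix 1-colour arrays, and the deposited values are log2 signals, so a difference of 1 is a doubling. Each array averages a culture, so fewer cells with a transcript and less of it per cell cannot be told apart.

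All 9 arrays were alike in scale, with medians of 6.60 to 6.64 log2, and the 5830 probe sets kept for testing correlated at 0.993 to 0.997 within groups and at 0.994 to 0.997 between groups. The mean of 18 hybridisation control probe sets was 8.71 on untreated array 1 and 9.04 to 9.45 on the other 8 arrays. The 3′ minus 5′ log2 signal was 0.20 to 0.40 for GAPDH and -0.16 to 0.14 for ACTB, highest for both on 5 µM array 3. The part of that in the results on channels was not tested. Of 12 measured genes of noradrenergic neuroblastoma, 11 lay above the median probe set, among them GATA3 at 11.9 and CHGA at 12.3, while TH, the first enzyme of catecholamine synthesis, read 5.55. Of the measured markers, 1 of 8 for mesenchymal and Schwann-like cells, 1 of 5 for astrocytes and oligodendrocytes, 0 of 4 for leukocytes, 1 of 5 for epithelium and 0 of 3 for muscle lay above that median. The mean of the noradrenergic list was 9.58 to 9.82 on untreated arrays, 9.76 to 9.82 at 0.5 nM and 9.74 to 9.88 at 5 µM. That of the astrocyte and oligodendrocyte list was 5.84 to 5.85, 5.82 to 5.89 and 5.78 to 5.87. The groups overlapped for both, as they did for the leukocyte and muscle lists. For the epithelium list both doses overlapped the untreated arrays, with 5.629 to 5.65 at 0.5 nM and 5.605 to 5.629 at 5 µM. The mean of the mesenchymal and Schwann-like list was 6.39 to 6.46 untreated, 6.37 to 6.41 at 0.5 nM and 6.38 to 6.39 at 5 µM. Every 5 µM array lay below the untreated ones, but narrowly, the highest at 6.388 against 6.392 for the lowest untreated array. The part of these lists in the results on channels was not tested.

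In untreated cells most channel probe sets were dim. Their median signal was 6.01 log2, against 6.64 for all probe sets, and 18 of 87 (20.7%) lay above the 50th percentile of the array, 4 above the 75th and 0 above the 90th. At or below the 25th percentile lay 29. Probe sets differ in how strongly they bind their target, so this order is one of array signal and not of transcript amounts. The brightest and the dimmest channel probe set were 4.98 log2 apart, while the SD over the 3 untreated arrays was 0.0022 to 0.151 with a median of 0.0414, so the coarse order is far wider than the spread between arrays.

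**Figure D1:**
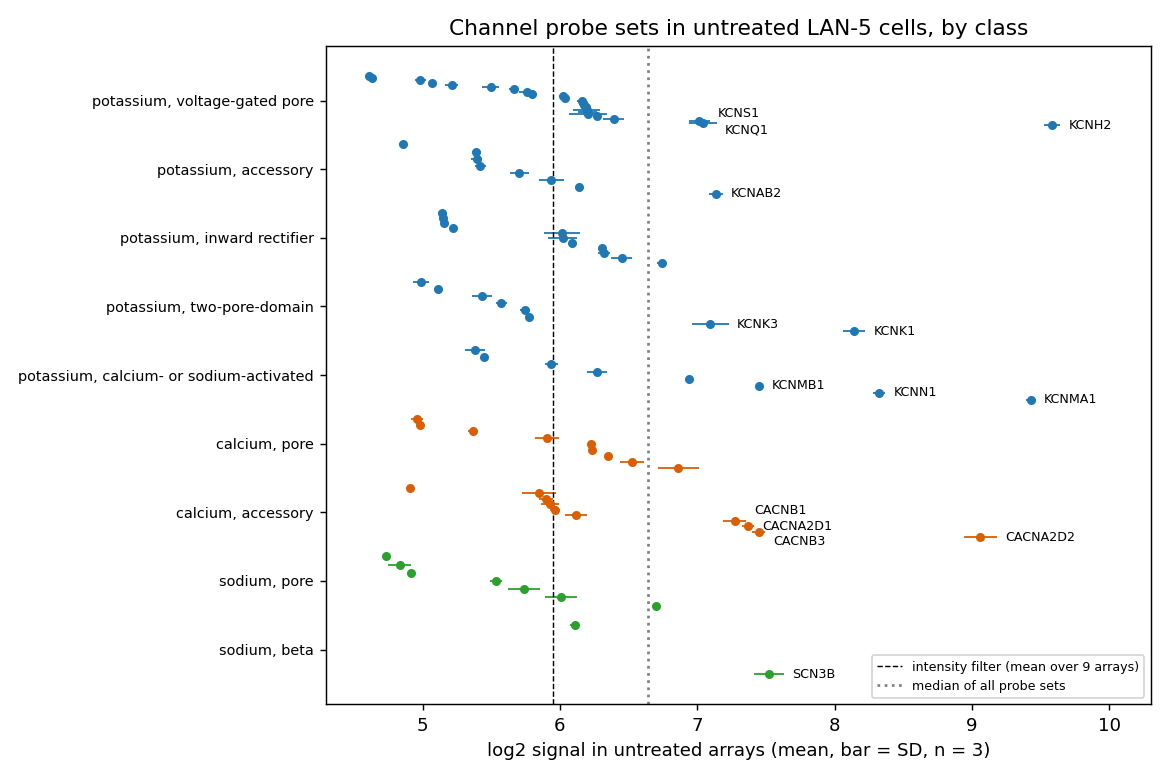
Each point is the mean log2 signal of 1 channel probe set over the 3 untreated arrays (bar, SD, n = 3), by channel class and coloured by ion; KCNQ1DN is not drawn. The dashed line is the intensity filter at 5.95 and the dotted line the median of all probe sets at 6.64; genes above 7 are named, and 5 potassium and calcium probe sets stand apart at 8.14 to 9.58.

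Bright and dim channel genes are shown by their promoters. The windows are from RefSeq on GRCh38.p14, run from 250 bases before to 50 bases after the transcription start with the most CpG dinucleotides, and are written 5′ to 3′ on the gene's own strand with each CpG in capitals. KCNMA1 (chr10:77637759-77638058, minus strand) gave one of the brightest signals, CACNB1 (chr17:39197620-39197919, minus strand) had the smallest p of the 45 tested channels at 5 µM, and CACNA1D (chr3:53494361-53494660, plus strand), a pore subunit of L-type calcium channels, was among the dimmest at 4.96. These 3 were chosen after their values were seen.
KCNMA1: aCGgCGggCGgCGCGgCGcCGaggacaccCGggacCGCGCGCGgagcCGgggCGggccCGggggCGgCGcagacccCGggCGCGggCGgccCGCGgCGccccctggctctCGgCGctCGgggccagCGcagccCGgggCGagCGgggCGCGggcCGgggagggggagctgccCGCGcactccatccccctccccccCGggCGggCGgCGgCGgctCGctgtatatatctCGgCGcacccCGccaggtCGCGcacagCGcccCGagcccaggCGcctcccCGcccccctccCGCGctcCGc
CACNB1: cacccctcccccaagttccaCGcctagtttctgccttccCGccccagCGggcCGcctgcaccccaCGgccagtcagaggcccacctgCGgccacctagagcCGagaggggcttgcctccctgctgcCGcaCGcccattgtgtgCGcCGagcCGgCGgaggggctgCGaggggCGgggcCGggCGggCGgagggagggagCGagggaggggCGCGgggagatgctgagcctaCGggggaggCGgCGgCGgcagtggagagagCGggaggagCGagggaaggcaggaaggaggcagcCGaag
CACNA1D: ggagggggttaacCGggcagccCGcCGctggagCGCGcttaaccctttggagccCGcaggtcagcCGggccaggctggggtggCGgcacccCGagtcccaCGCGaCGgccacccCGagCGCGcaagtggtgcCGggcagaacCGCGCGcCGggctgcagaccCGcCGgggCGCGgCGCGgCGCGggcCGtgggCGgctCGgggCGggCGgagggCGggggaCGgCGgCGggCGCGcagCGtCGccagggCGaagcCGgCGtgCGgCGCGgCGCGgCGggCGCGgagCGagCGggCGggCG

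The 3 windows hold 54 (KCNMA1), 28 (CACNB1) and 56 (CACNA1D) CpG dinucleotides, and the dim CACNA1D has the most. Each holds the GC box GGGCGG, which like CACGTG contains a CpG, on 1 strand or the other. None holds the exact strings CACGTG, for the E-box, or TATAAA, for the TATA box. Variants were not searched, so the tatatat in the KCNMA1 window was not counted, and a TATA box there is not excluded. A promoter window was found for 68 of the 87 genes, at 108 starts. Channel genes had a median of 27 CpG, counted at the start with the most, against 26 for the 6209 genes of the array with a window and 16 for all 27305 genes. GGGCGG was in 57 channel starts (52.8%, against 45.0% of all 35116 starts), CACGTG in 9 (8.3%, against 7.3%) and TATAAA in 8 (7.4%, against 11.5%). These motif shares were not counted for the genes of the array alone, whose CpG median is above that of all genes. They therefore do not compare channels with other genes of the array. The median was 27 CpG for the 35 channel genes bright enough to be tested and 26 for the 33 dim ones. Across the 68 genes, which are not independent replicates and whose signals share the same 3 untreated arrays, CpG count and untreated signal gave a Spearman rho of 0.108 and a Pearson r of 0.201.

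**Figure D2:**
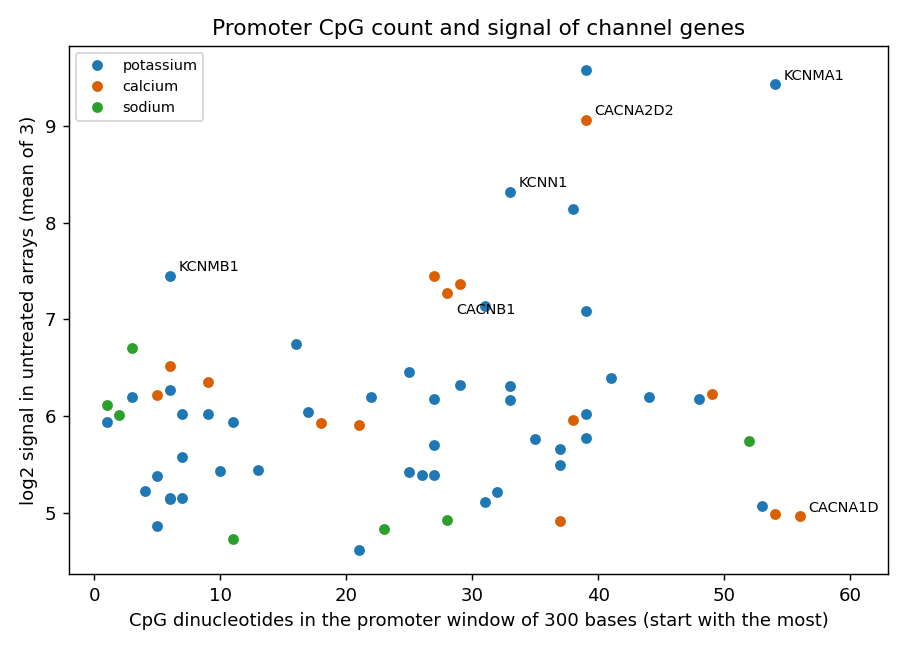
Each point is 1 channel gene with a RefSeq promoter window: CpG dinucleotides in the 300-base window (horizontal) against the mean log2 signal over the 3 untreated arrays (vertical), coloured by ion. KCNMA1 with 54 CpG and CACNA1D with 56 lie far apart in signal, at 9.43 and 4.96.

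Among voltage-gated potassium pore subunits, KCNH2 stood far above the rest. It encodes the ERG channel, whose current repolarises the heart and contributes to the resting potential of neuroblastoma cells, and its probe set (210036_s_at) read 9.58 ± 0.061 log2 (SD, n = 3), at the 88.7th percentile. The 23 probe sets of this class had a median of 6.16 and ran from 4.61 to 9.58. Only KCNQ1, the pore of the slow delayed rectifier, at 7.04, and KCNS1, a modifier subunit that forms no channel alone, at 7.02, joined KCNH2 above the array median. KCND2 at 4.61 and KCNV1 at 4.63 were the dimmest of all 87 channel probe sets. KCNS1, KCND2 and KCNV1 were named after their values were seen. Of the accessory potassium subunits outside the calcium-activated class, KCNAB2, a cytoplasmic beta subunit, read 7.14, and the other 7 lay between 4.86 and 6.14.

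Calcium-activated potassium channels were the class with the highest median among those with more than 2 members, at 6.61 for 8 probe sets. Unlike the voltage-gated classes, this class holds pore subunits and the KCNMB beta subunits together. KCNMA1, the pore of the large-conductance BK channel, read 9.43 ± 0.037 (SD, n = 3), and KCNN1, a small-conductance SK channel, read 8.32 ± 0.044 (SD, n = 3). KCNMB1, a beta subunit of the BK channel best known from smooth muscle, read 7.45. Of the 8 two-pore-domain channels, KCNK1 at 8.14 and KCNK3, an acid-sensitive leak channel, at 7.09 lay above the array median, and the other 6 between 4.99 and 5.77. The 11 inward rectifiers were all moderate or dim, from 5.14 to 6.74, with KCNJ8, a pore of ATP-sensitive potassium channels, the brightest.

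The brightest calcium channel probe sets were those of accessory subunits, although the medians of the 10 accessory and the 9 pore subunits were close, at 6.04 and 6.23. CACNA2D2, an alpha2delta subunit of the kind that binds gabapentin, read 9.06 ± 0.120 (SD, n = 3), followed by the beta subunit gene CACNB3 at 7.45, CACNA2D1 at 7.37 and CACNB1 at 7.27. The other 6 accessory probe sets lay between 4.91 and 6.11. Of the pore subunits, CACNA1H, a low-voltage-activated T-type channel, was the brightest at 6.86 ± 0.151 (SD, n = 3), and it was alone of its class above the array median. CACNA1B, the N-type channel of presynaptic endings, read 6.23, and the L-type genes CACNA1C at 4.98 and CACNA1D at 4.96, named after their values were seen, were near the floor of the array, whose lowest value was 4.37.

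Sodium channel pore subunits were the dimmest class, with a median of 5.53 for 7 probe sets. SCN10A, best known from sensory neurons, read 6.70, and SCN2A, a pore of brain neurons, read 6.01. SCN9A at 4.92, SCN11A at 4.83 and SCN7A at 4.73, named after their values were seen, lay near the floor. Both beta subunits lay above the median of the pore subunits: SCN3B read 7.52 ± 0.107 (SD, n = 3) and SCN2B 6.11 ± 0.035 (SD, n = 3). Position on the chromosome can be set beside these levels. By RefSeq positions, 19 pairs among the 87 genes lie within 500000 bases of each other. In array signal 6 of these pairs differed by more than 1 log2. Among them were SCN10A and SCN11A, by 1.87 log2, and KCNQ1 and the non-coding KCNQ1DN, by 1.22 log2. No share was counted over more distant pairs, and signals of different probe sets are not transcript amounts, so these counts are a description only.

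The comparisons of the 3 groups cover 45 of the 87 channel probe sets. The other 42 fell with the dimmest 33.3% of the array, at a mean over all 9 arrays of 5.95 log2 or less, a filter that does not use the groups. SCN2A at 5.96 and KCNMB3 at 5.96 lay just above it, and KCNE2, CACNB2 and CACNG3, each at 5.93, just below, all but SCN2A named for their place at the filter. Of the tested probe sets, 12 carry a manufacturer's suffix (_s_at or _x_at) for probes that can match several transcripts, KCNH2, KCNMA1 and CACNA2D2 among them. All 3 comparisons draw on the same 3 groups, so they share arrays and are not independent of each other.

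A repeated value was common in the deposited table. In 32 of the 45 tested channels (71.1%) the same value to the last digit stood on 2 or more arrays, against 53.2% of all tested probe sets. It stood on 4 or 5 arrays in 7 of the 45, and on 4 or more in 377 of all 5830 tested probe sets. KCNH2 read 9.57 on all 3 arrays at 0.5 nM and on untreated array 1, so its SD at 0.5 nM is 0, and KCNC1 read 6.09 on 4 arrays that span all 3 groups. Every test used limma's moderated variance, which draws the spread of each probe set toward the common one.

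No channel probe set passed the threshold at 5 µM S100B against untreated cells. In limma's moderated test with Benjamini-Hochberg adjustment over 5830 probe sets, 0 of 45 channels had an adjusted p under 0.05, where 17 of all tested probe sets (0.292%) did, and the lowest adjusted p among channels was 0.463. At an unadjusted p under 0.05 there were 4 channels (8.89%), against 6.84% of all tested probe sets. All 4 were lower at 5 µM, a direction in which 5.35% of all tested probe sets passed. The 3 arrays of each group did not overlap for 8 channels (17.8%), against 12.3% of all tested, and 7 of those 8 were lower, against 9.47% of all tested for that direction. With 3 arrays a group, exact permutation tests reach no p below 0.1, so none was run for single genes.

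CACNB1 (210185_at), whose beta subunit carries calcium channel pores to the membrane and in skeletal muscle joins excitation to contraction, had the smallest p of the 45 tested channels. It read 7.20, 7.25 and 7.36 on the untreated arrays, 7.29, 7.18 and 7.29 at 0.5 nM, and 7.13, 6.89 and 7.06 at 5 µM. The 5 µM arrays were all below the other 6. The difference from untreated was -0.24 ± 0.072 log2 (SE, 95% interval -0.404 to -0.084), or 84.4% of the untreated signal, with an unadjusted p of 0.00651 and an adjusted p of 0.463 by limma.

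KCNMA1 (221584_s_at) read 9.39, 9.46 and 9.44 untreated, 9.67, 9.36 and 9.36 at 0.5 nM, and 9.11, 9.35 and 9.19 at 5 µM. Its 5 µM arrays lay below all 6 others, the highest of them only just below 2 arrays at 0.5 nM, and 1 array at 0.5 nM stood high. The limma difference between 5 µM and untreated was -0.21 ± 0.091 log2 (95% interval -0.413 to -0.011), or 86.3%, with an adjusted p of 0.707. KCNMA1 also had the widest range over the 9 arrays of any tested channel, 0.563 log2.

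KCNC1 (208477_at), a fast-activating delayed rectifier of rapidly firing neurons, read 6.09, 6.20 and 6.29 untreated, 6.09, 6.27 and 6.09 at 0.5 nM, and 6.09, 5.98 and 5.87 at 5 µM. The highest 5 µM array equalled the lowest untreated one. The difference was -0.22 ± 0.078 log2 (95% interval -0.389 to -0.042), with an adjusted p of 0.637 by limma. KCNH4 (220802_at), a brain channel of the ether-a-go-go group, read 6.19, 6.17 and 6.16 untreated, 6.08, 6.04 and 6.08 at 0.5 nM, and 6.03, 6.07 and 6.06 at 5 µM. The untreated arrays lay above all 6 treated ones, and the difference at 5 µM was the smallest of these 4, at -0.12 ± 0.047 log2 (95% interval -0.224 to -0.017), with an adjusted p of 0.683 by limma. Both genes are dim, within 0.3 log2 of the filter.

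**Figure D3:**
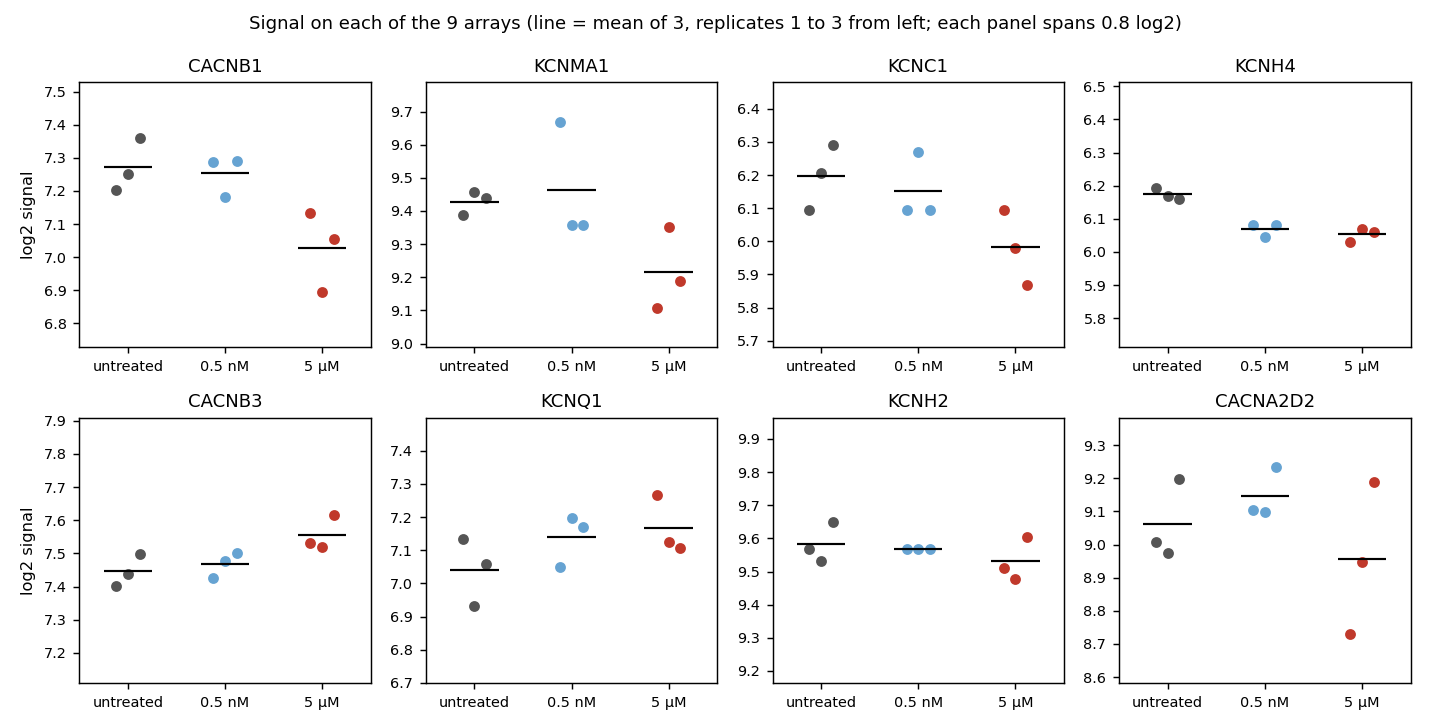
Log2 signal of 8 channel probe sets on each array, replicates 1 to 3 from the left in each group, with a line at the mean of 3; each vertical axis spans 0.8 log2 and does not start at 0. The 5 µM arrays of CACNB1 and KCNMA1 lie below the other 6 arrays, those of CACNB3 above them, and the groups overlap for KCNQ1, KCNH2 and CACNA2D2.

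On the higher side at 5 µM stood CACNB3, a beta subunit of neuronal calcium channels. It read 7.40, 7.44 and 7.50 untreated, 7.43, 7.48 and 7.50 at 0.5 nM, and 7.53, 7.52 and 7.62 at 5 µM. Those 5 µM arrays lay above the other 6, opposite to CACNB1, and the difference from untreated was 0.11 ± 0.054 log2 (95% interval -0.009 to 0.228), with an adjusted p of 0.746 by limma. KCNQ1 read 7.13, 6.93 and 7.06 untreated and 7.27, 7.12 and 7.11 at 5 µM, which overlap, for a difference of 0.13 ± 0.072 log2 (95% interval -0.033 to 0.284) and an adjusted p of 0.779 by limma. Without untreated array 2 the KCNQ1 difference was 0.07 log2, as it was without 5 µM array 1.

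Of the 4 brightest channels, KCNH2, CACNA2D2 and KCNN1 differed by less from untreated at 5 µM than KCNMA1. KCNH2 read 9.57, 9.53 and 9.65 untreated and 9.51, 9.48 and 9.60 at 5 µM, which overlap, and differed by -0.05 ± 0.055 log2 (95% interval -0.175 to 0.070). CACNA2D2 read 9.01, 8.98 and 9.20 untreated and 8.73, 8.95 and 9.19 at 5 µM, where the spread within the treated group was wider than the difference of -0.11 ± 0.106 log2. KCNN1 read 8.37, 8.32 and 8.28 untreated and 8.27, 8.27 and 8.10 at 5 µM, without overlap, and differed by -0.11 ± 0.077 log2, or by -0.06 log2 without 5 µM array 3. By limma the adjusted p-values were 0.909 for KCNH2, 0.898 for CACNA2D2 and 0.821 for KCNN1.

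By class, the 14 tested voltage-gated potassium pore subunits had a median difference of -0.04 log2 at 5 µM. It was -0.03 for the 6 tested members of the calcium-activated class, -0.02 for the 7 inward rectifiers and -0.07 for the 2 two-pore-domain channels. The 5 calcium pore subunits had a median of -0.05, and all 5 were below 0, CACNA1B with 6.25, 6.22 and 6.22 untreated against 6.09, 6.21 and 6.17 at 5 µM. The 5 calcium accessory subunits had the lowest median, -0.11, and held both CACNB1 and CACNB3. The 2 sodium pore subunits had a median of -0.09, and the 2 sodium beta subunits 0.02. The median over all 45 channels was -0.04 log2 and that over all 5830 probe sets -0.02.

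**Figure D4:**
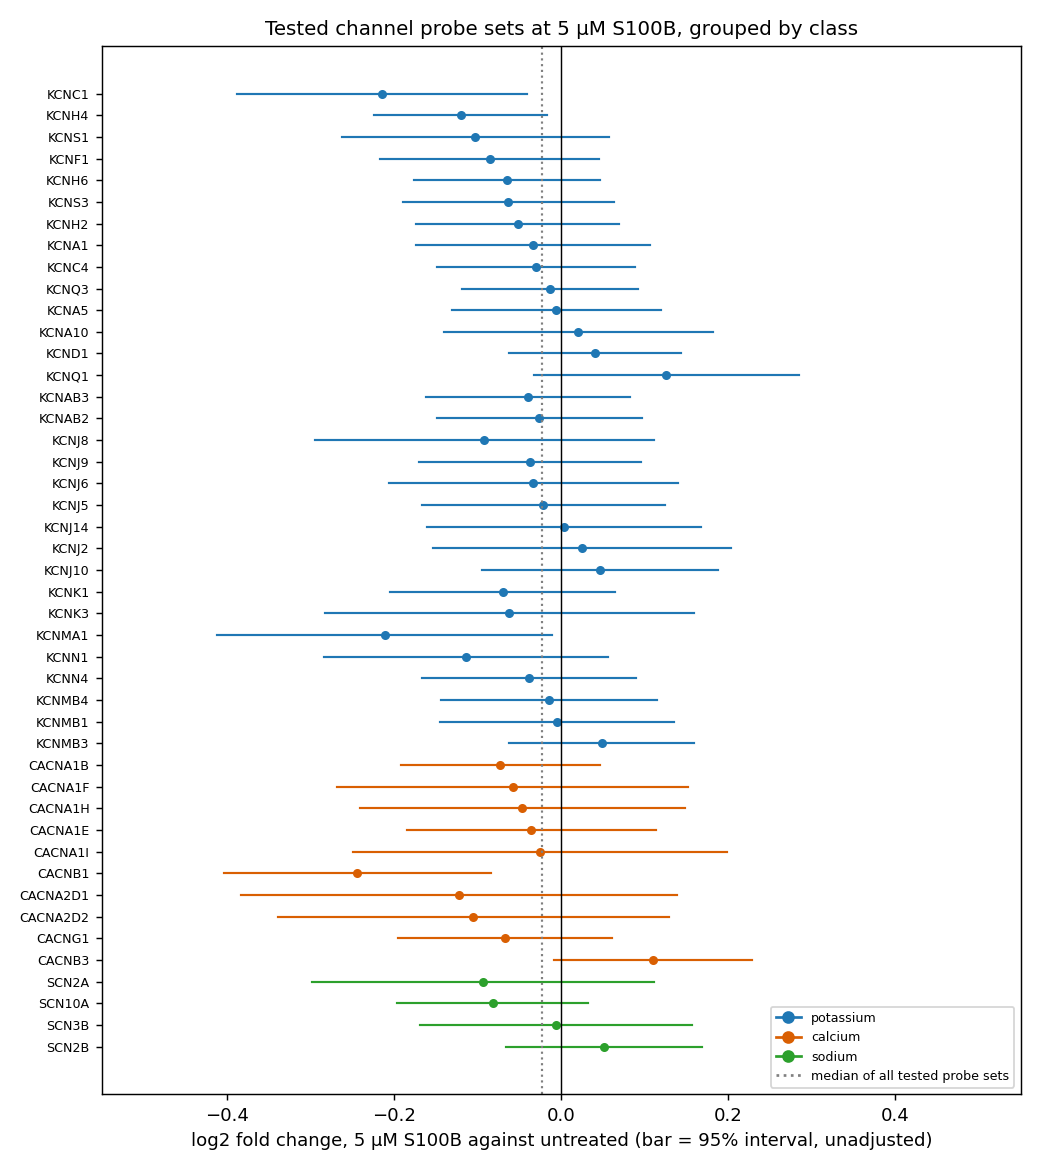
Log2 fold change of the 45 tested channel probe sets at 5 µM S100B against untreated, with unadjusted 95% intervals from limma, grouped by class and ordered within it; the dotted line is the median of all tested probe sets. All intervals lie between -0.413 and 0.284, and those of CACNB1, KCNC1, KCNH4 and KCNMA1 do not reach 0.

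Of the 45 channels, 36 (80%) were lower at 5 µM, against 61.9% of all tested probe sets. That split moves with the scaling: after quantile normalization 29 (64.4%) were lower, against 49.3% of all tested, and after median centring 31 (68.9%), against 53.8%. The mean over the 45 channels was 6.76, 6.75 and 6.78 log2 on the untreated arrays, 6.75, 6.73 and 6.75 at 0.5 nM, and 6.74, 6.71 and 6.69 at 5 µM. The 5 µM arrays were all below the untreated ones, as they were for the mean over all tested probe sets, which was 7.98 to 7.99 untreated and 7.95 to 7.97 at 5 µM.

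The intervals give how finely differences in signal were resolved against the spread between arrays. They set no bound on changes in transcript amounts, and the exactly repeated values enter that spread. In each of the 3 comparisons, all 45 unadjusted 95% intervals lay within 0.5 log2 of 0, a 1.41-fold difference. Within 0.25 log2, a 1.19-fold difference, lay 33 intervals for 5 µM against untreated, 34 for 0.5 nM against untreated and 37 for 5 µM against 0.5 nM. The median half-width of an interval was 0.156 log2 over all tested probe sets with 3 arrays a group.

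At 0.5 nM no channel passed either. With limma and Benjamini-Hochberg adjustment, 0 of 45 channels and 0 of all 5830 probe sets (0%) had an adjusted p under 0.05, and the lowest adjusted p among channels was 0.9999. At an unadjusted p under 0.05 there was 1 channel (2.22%), KCNH4, against 3.29% of all tested probe sets. Its difference from untreated was -0.10 ± 0.047 log2 (95% interval -0.207 to -0.001), close to its value at 5 µM, and both doses are set against the same untreated arrays. The groups did not overlap for 3 channels (6.67%), KCNH4, KCNH6 and SCN10A, all lower, against 6.98% of all tested. KCNH6, a relative of KCNH2 in the ERG group, read 6.18, 6.12 and 6.17 untreated and 6.11, 6.05 and 6.10 at 0.5 nM, a difference of -0.07 log2.

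SCN10A read 6.69, 6.68 and 6.73 untreated, 6.56, 6.63 and 6.66 at 0.5 nM, and 6.59, 6.60 and 6.66 at 5 µM. Its difference from untreated was -0.08 log2 at each dose, with an SE of 0.052, and the treated arrays all lay below the untreated ones. SCN2B read 6.09, 6.08 and 6.15 untreated and 6.15, 6.28 and 6.19 at 0.5 nM, a difference of 0.10 ± 0.053 log2 (95% interval -0.019 to 0.215), or of 0.06 log2 without 0.5 nM array 2. KCNMB1 read 7.44, 7.44 and 7.48 untreated, 7.29, 7.26 and 7.47 at 0.5 nM and 7.49, 7.41 and 7.44 at 5 µM, so 2 arrays at 0.5 nM stood below the other 7. KCNJ8 read 6.77, 6.73 and 6.71 untreated and 6.72, 6.66 and 6.43 at 0.5 nM, and differed by -0.13 ± 0.092 log2, or by -0.05 log2 without the low array 3 of 0.5 nM. Of the 45, 27 were lower and 18 higher at 0.5 nM, with a median of -0.02 log2, as over all tested probe sets.

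Between the doses, 0 of 45 channels passed for 5 µM against 0.5 nM by limma with Benjamini-Hochberg adjustment, where 15 of all tested probe sets (0.257%) did, and the lowest adjusted p among channels was 0.861. At an unadjusted p under 0.05 there were 2 channels (4.44%), CACNB1 and KCNMA1, against 4.65% of all tested. CACNB1 differed by -0.23 log2 (95% interval -0.386 to -0.066), and KCNMA1 by -0.25 log2 (95% interval -0.447 to -0.045), or -0.14 log2 without the high array 1 of 0.5 nM. The groups did not overlap for 4 channels (8.89%), against 6.98% of all tested: CACNB1 and KCNMA1 were lower, and CACNB3 and KCND1, the latter named after its values were seen, higher at 5 µM. KCNK3 read 7.23, 7.28 and 7.15 at 0.5 nM and 6.83, 7.03 and 7.24 at 5 µM, which overlap, for a difference of -0.19 log2, and its untreated arrays at 7.09, 6.96 and 7.23 overlapped both. That KCNK3 difference was -0.09 log2 without 5 µM array 1 and -0.29 log2 without 5 µM array 3.

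Over the 3 groups together, limma's F-test gave 0 of 45 channels at an adjusted p under 0.05, where 14 of all tested probe sets (0.24%) passed, and the lowest adjusted p among channels was 0.784. At an unadjusted p under 0.05 there were 3 channels, CACNB1 at 0.0112, KCNMA1 at 0.0433 and KCNC1 at 0.0456, against 4.84% of all tested.

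The 42 dim channels were looked at in a limma fit without the filter. At 5 µM they differed from untreated by -0.179 to 0.081 log2, with a median of -0.02, and at 0.5 nM by -0.111 to 0.086. In that fit KCNE1 had a smaller unadjusted limma p at 5 µM (0.00472) than CACNB1 (0.00551). KCNE1, the accessory subunit of KCNQ1, read 5.40, 5.35 and 5.43 untreated, 5.30, 5.30 and 5.24 at 0.5 nM, and 5.18, 5.16 and 5.30 at 5 µM. Its untreated arrays lay above all 6 treated ones, and it differed by -0.18 ± 0.049 log2 at 5 µM, with an adjusted p of 0.381 by limma. KCNG1, a modifier subunit, differed by -0.15 ± 0.065 log2 at 5 µM, with an adjusted p of 0.64 by limma. At 0.5 nM KCNE1 differed from untreated by -0.11 ± 0.049 log2, with an unadjusted p of 0.048 and an adjusted p of 0.979 by limma. No other dim channel had an unadjusted p under 0.05 in any comparison. The share over all probe sets of that fit is not given beside these 2 of 42, so they are not read as a result about channels. KCNE1 and KCNG1 were named after their values were seen.

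Other genes of excitability were 102 probe sets of 100 genes for pumps, exchangers, calcium release channels, transmitter-gated and other channels and channel partners, of which 48 were tested. In untreated cells 25 of the 102 (24.5%) lay above the array median, against 20.7% of the channels. The sodium pump subunit ATP1B1 at 11.3, the reticular calcium pump ATP2A2 at 10.8 and the nicotinic receptor subunit CHRNA3 at 10.6 were all brighter than any channel probe set. None of the 48 passed in any comparison by limma with Benjamini-Hochberg adjustment. At an unadjusted p under 0.05 there were 8 at 5 µM (16.7%, against 6.84% of all tested probe sets), 4 of them lower, 2 at 0.5 nM (4.17%, against 3.29%) and 3 between the doses (6.25%, against 4.65%). Their median difference at 5 µM was -0.02 log2, with 25 lower and 23 higher, beside -0.04 log2 and 36 lower for the channels, and the difference between those counts was not tested.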

How the data were processed

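RNA of 9 LAN-5 cultures was measured on 9 Affymetrix arrays, 3 for each of untreated, 0.5 nM and 5 µM S100B; groups and replicate numbers came from the sample titles. The authors deposited log2 values, 1 per probe set and array, made with GCRMA per the submitters' processing notes; the sources used here give no version, settings or genome build. Depth has no meaning for arrays: their number limits the precision, and p-values measure only the spread between these cultures.

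The 47 control probe sets were removed, and the dimmest 33.3% of the other 8746 by the mean over all 9 arrays (5.95 log2 or less) left out, which kept 5830. The R package limma 3.58.1 (R 4.3.3; lmFit and eBayes) fitted 1 factor of 3 groups with no covariate, with Benjamini-Hochberg adjustment over all 5830 and a threshold of 0.05; the prior had 4.55 degrees of freedom and an SD of 0.0842 log2, and the median half-width of a 95% interval was 0.156 log2. The fit was tested on simulated data with normal noise and with changes larger than that of any channel here. That test therefore does not cover differences as small as the ones reported. It does not cover exactly repeated values either, since those data held none. Symbols came from the platform annotation, where 7840 probe sets had 1 symbol, 388 several and 518 none, and all 87 channel genes matched RefSeq by Entrez identifier.

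The members, classes and lists were chosen with earlier results of these data known. Named genes were the 12 brightest channels in untreated cells, the 6 smallest p-values of each comparison, and the brightest and the smallest p of each class; any other is marked. Alternatives were no filter, a filter at 50%, quantile normalization, median centring, an intensity trend, only the groups compared, the replicate number as a block, and leaving out each array.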

Additional observations from a re-analysis of the deposited data

How the results depend on the processing

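No channel passed the adjusted threshold in any comparison, or in the F-test, under any alternative run. The added counts of channels at an unadjusted p under 0.05 moved. The number tested moved with the filter, from 45 to all 87 without it and to fewer than 45 with the dimmest 50% left out. No share of all probe sets under the same setting is given beside these counts, so they are not read as a result about channels. For 5 µM against untreated (4 channels) the count was 7 without the filter (KCNE1 and KCNG1, tested there alone, and CACNB3 were added), and 2 with the dimmest 50% left out; for 0.5 nM (1 channel) it was 2 and 0 there, and 0 with median centring and with only the groups compared. With the replicate block it was 3 for 5 µM, 0 for 0.5 nM and 3 between the doses. The labels give same-numbered arrays only a number in common. The correlation of their deviations from the group means was -0.00035 to 0.33, and not every array correlated best with its own number. It was 0.298 to 0.33 between replicate 3 arrays and -0.00035 to 0.229 between those numbered 1 or 2. Every replicate 3 array correlated negatively, at -0.367 to -0.0624, with each array of another group and number. Whether replicate 3 arrays share a batch was not tested, and the main fit does not use the number. Leaving out 1 array gave 2 to 4 channels for 5 µM (2 without untreated array 1, 2 or 3 or 5 µM array 1), 0 to 1 for 0.5 nM (1 only without 0.5 nM array 1 or 3) and 2 to 5 between the doses (4 without 0.5 nM array 3, 5 without 5 µM array 3). Over all probe sets the 17 calls at 5 µM were 7 and the 15 between the doses 4 with only the groups compared. They were 15 and 15 with the replicate block, which keeps all 9 arrays, and 4 to 17 and 3 to 14 with 1 array left out. Fewer arrays enter the fits with only the groups compared and with 1 array left out. The cause of the changed counts was not tested.

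Of 625 fold changes of named channels under alternatives, 608 kept their sign and their side of the threshold and 17 changed sign, all for 5 µM against untreated and none of a called value. KCNMB1 (-0.0052 log2) was 0.0150 with quantile normalization and 0.0110 with median centring, and SCN3B (-0.0062) 0.0067 and 0.0101. With 1 array left out the fold change ranged from -0.0276 to 0.0118 for KCNMB1, -0.0598 to 0.0469 for SCN3B, -0.133 to 0.0075 for CACNA1H, -0.164 to 0.0371 for KCNK3, -0.222 to 0.0067 for CACNA2D2, -0.0535 to 0.0036 for KCNAB2, -0.152 to 0.000303 for KCNJ8, -0.146 to 0.0672 for CACNA1F and -0.181 to 0.0127 for SCN2A. KCNJ8, CACNA1F and SCN2A changed sign without 5 µM array 3. Without untreated array 1, whose hybridisation controls were low, CACNB1 was -0.28, KCNMA1 -0.23, KCNC1 -0.27 and KCNH4 -0.11. CACNB1 ran from -0.30 to -0.18 over its alternatives, with adjusted p-values of 0.316 to 0.891. Signal over background could not be assessed, since scanner intensities were not analysed here.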
